A study of Mus musculus with 51 samples.

Results

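The 7 genes C1qa, C1qb, C1qc, C4b, C3ar1, Itgax and Itgb2, which encode complement components and complement receptors, were examined in laser-captured hippocampal subfields of the rTg4510 mouse model of tauopathy. They were taken by symbol from the annotation of the array platform, which names 8 probe sets for them (1 per gene, and 1419482_at and 1419483_at for C3ar1) among 22626 probe sets in all, and each was read on all 51 arrays. rTg4510 mice carry a tetracycline-responsive (TRE) human tau transgene with the P301L mutation and a CaMKIIα-tTA transactivator, so that the CaMKIIα promoter directs tau to forebrain neurons. Littermates with the transactivator but no tau transgene (tTA, labelled TTA alone) and littermates with neither transgene (DN, double-negative) were the controls. All mice were labelled female and 4.5 months old, and 6 DN, 5 tTA and 6 rTg4510 (labelled Tg4510) mice each gave 1 array of the CA1 pyramidal layer, 1 of the CA3 pyramidal layer and 1 of the granule layer of the dentate gyrus (DG). Mice are numbered within their genotype, and equal numbers in different genotypes have no relation to one another.

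Complement is a cascade of plasma and tissue proteins. C1q, built from the chains encoded by C1qa, C1qb and C1qc, recognizes surfaces in the classical pathway and leads to cleavage of C4 and then C3; C3ar1 is the receptor for the C3a fragment, and the integrin chains Itgax (CD11c) and Itgb2 (CD18) together form complement receptor 4. In brain, C1q, C3ar1 and the CD18 integrins are known mainly as products of microglia, C4b as a product of astrocytes and other cells, and C1q and C3 are known to tag synapses for removal by microglia.

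The 3 C1q genes lie side by side on chromosome 4 of the mouse genome (GRCm38.p6, RefSeq annotation), with C1qb at 136880126 to 136886200, C1qc at 136889801 to 136892936 and C1qa at 136895916 to 136898844, 18719 bases from the first to the last. C4b lies on chromosome 17 (34728139 to 34743902), C3ar1 on chromosome 6 (122847140 to 122856157), Itgax on chromosome 7 (128129526 to 128150657) and Itgb2 on chromosome 10 (77530329 to 77565708). The RefSeq promoter table held a promoter for 4 of the 7 genes, among them C1qb and C1qc, the pair of members whose signals followed each other most closely (r = 0.64 over 51 arrays after the subfield means were removed, arrays of 1 mouse not being independent). Their promoters are shown for that reason, from 250 bases before the transcription start to 50 bases from it on, 5′ to 3′ on the minus strand, at chr4:136886151-136886450 for C1qb and chr4:136892865-136893164 for C1qc. Capitals mark GAGGAA or its reverse complement TTCCTC, the core letters of a PU box, the element bound by the myeloid factor PU.1.
C1qb: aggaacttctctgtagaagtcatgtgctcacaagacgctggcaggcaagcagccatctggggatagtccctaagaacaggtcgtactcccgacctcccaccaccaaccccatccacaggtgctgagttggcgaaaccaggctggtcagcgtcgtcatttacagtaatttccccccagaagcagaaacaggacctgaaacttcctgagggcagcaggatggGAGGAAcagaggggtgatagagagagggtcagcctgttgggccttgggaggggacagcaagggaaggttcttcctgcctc
C1qc: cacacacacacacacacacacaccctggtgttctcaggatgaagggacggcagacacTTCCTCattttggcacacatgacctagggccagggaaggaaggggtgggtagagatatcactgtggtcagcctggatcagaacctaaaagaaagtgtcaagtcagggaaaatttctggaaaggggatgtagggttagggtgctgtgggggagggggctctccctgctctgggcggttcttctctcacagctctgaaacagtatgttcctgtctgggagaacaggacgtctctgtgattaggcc
The letters occurred once in each, on the same strand as the gene 30 to 25 bases before the start of C1qb and on the opposite strand 193 to 188 bases before the start of C1qc. They occurred in neither the C3ar1 promoter nor the Itgax promoter, and in 28.3% of the 32851 promoters of this length in the table, so a match is a description of the letters and not a binding site.

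Signals were log2 values from RMA, which turns the probe intensities of an array into 1 normalized value per probe set, and a difference of 1 is a 2-fold difference in signal. The median probe set of an array lay between 2.91 and 3.12. The labels were checked against Prnp, which lay higher in rTg4510 than in control arrays (its 2 probe sets were named from the study's supplementary lists), and against Xist. Prnp went against the genotype label on 5 arrays: it was at the rTg4510 level in CA1, CA3 and DG of DN mouse 4 and in DG of DN mouse 5, and at the control level in DG of rTg4510 mouse 3. Xist went against the female label on 3 arrays, CA1 and CA3 of DN mouse 5 and DG of rTg4510 mouse 3. It went with the label on DG of DN mouse 5 and on CA1 and CA3 of rTg4510 mouse 3. In each of these mice the DG array thus differed in Xist from the CA1 and CA3 arrays, and the reason was not tested. All arrays at odds with Prnp or Xist were kept under their labels. Several results that rest on them are also given without the arrays at odds with Prnp. Markers of CA3 and of DG were highest in the arrays of their own subfield in 17 of 17 cases each, and those of CA1 in 11 of 17.

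Most complement signals were low. Of 408 member values, 339 (83.1%) lay at or below the median of their array, and on 23 arrays no member rose above it. C3ar1 on 1419482_at was below the array median on all 51 arrays, Itgax and Itgb2 on 50 each, C3ar1 on 1419483_at on 46, C1qa on 39, C1qc and C4b on 35 each and C1qb on 33. No detection calls were used, so how many of these signals exceeded background was not tested, and differences between low signals are compressed on this scale. The signals above the median were unevenly spread: in CA1 they made up 2.08% of the DN values, 2.5% of the tTA values and 29.2% of the rTg4510 values, in CA3 4.17%, 5% and 20.8%, and in DG 20.8%, 32.5% and 33.3%. In CA1, rTg4510 mice 1, 4 and 5 had 4, 5 and 4 member values above the median, mouse 2 had 1, and mice 3 and 6 had 0. In CA3, mice 1, 4 and 5 had 4, 3 and 2, mouse 3 had 1, and mice 2 and 6 had 0. Values of 1 mouse are not independent, so these shares describe values and not mice. Of the 10 DN values above the median in DG, 6 came from mouse 4 and 2 from mouse 5, the arrays with Prnp at the rTg4510 level. With the arrays at odds with Prnp left out, the shares in DG were 6.25% in DN, 32.5% in tTA and 40% in rTg4510 mice, and the DN shares in CA1 and CA3 were 2.5% each. As only tissue of the captured layers was measured, fewer cells of a type and less RNA per cell cannot be told apart.

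**Figure D1:**
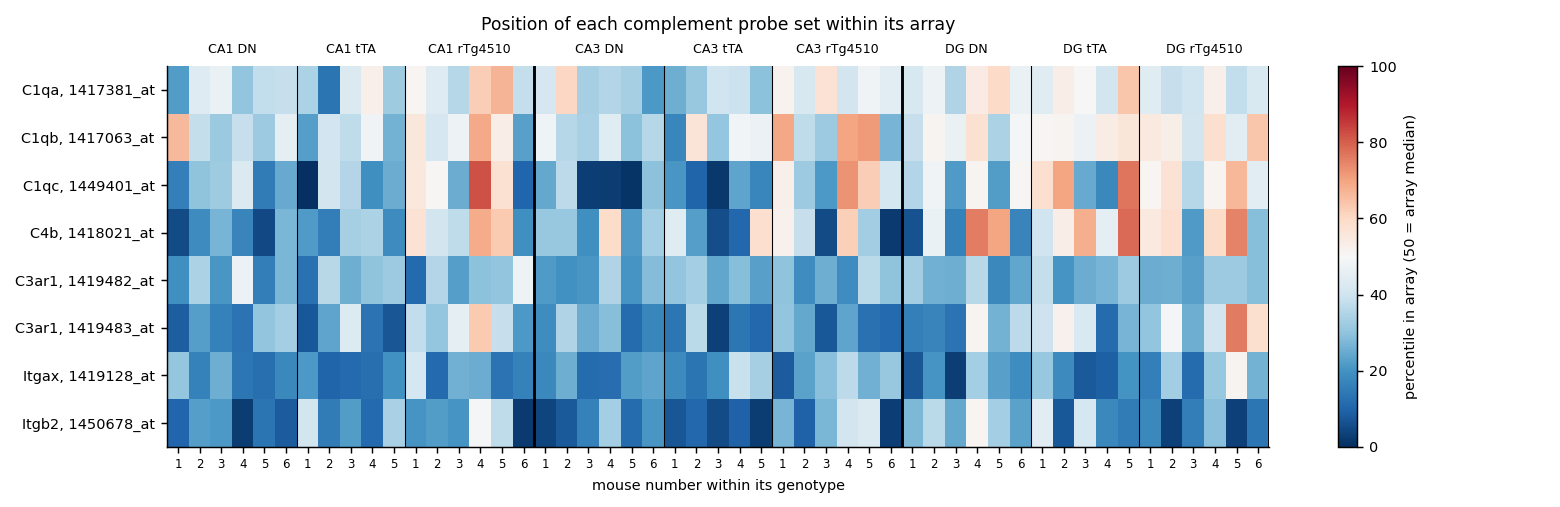
Percentile of each complement probe set (rows) within its array (columns), grouped by subfield and genotype, with the mouse number below; 50 is the array median, red is above it and blue below. Values above the median are mostly C1q and C4b values, in rTg4510 CA1 and CA3 and in DG, whereas the 1419482_at row of C3ar1 is below it on all 51 arrays.

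On their member probe sets, the C1q genes, which encode the recognition molecule, were higher in rTg4510 than in tTA mice in CA1 and CA3 on average. In DG, C1qa and C1qc were not, and C1qb was higher on its member probe set only. None of these differences passed the threshold of a Benjamini-Hochberg adjusted p below 0.05 in limma. In CA1, C1qc was 1.16, 2.35, 2.11, 1.92 and 1.81 in the 5 tTA mice, had a median of 1.86 in DN mice (1.59 to 2.58), and had a median of 3.29 in rTg4510 mice (1.56 to 6.28). Mice 4, 5, 1 and 2 of the rTg4510 group, at 6.28, 3.77, 3.42 and 3.15, lay above every control, and mice 3 and 6, at 1.79 and 1.56, lay among the controls. The difference was 1.46 ± 0.60 (SE; 95% interval 0.20 to 2.72), a 2.75-fold difference, with an unadjusted p of 0.0262 and an adjusted p of 0.999 in limma, and without rTg4510 mouse 4 it was 0.87. C1qa in CA1 was 2.15, 1.58, 2.49, 3.10 and 1.996 in tTA mice, with medians of 2.21 in DN (1.97 to 2.76) and 2.80 in rTg4510 mice (2.13 to 4.75). Only mice 4 and 5, at 4.26 and 4.75, exceeded the highest tTA mouse, and the difference was 0.90 ± 0.42 (unadjusted p = 0.0468, limma), or 0.59 without mouse 5. C1qb in CA1 was 1.85, 2.33, 2.20, 2.86 and 1.84 in tTA mice, and its rTg4510 values ran from 1.84 to 4.94 around a median of 3.11. The tTA values and the rTg4510 values overlapped over the whole tTA range but its lowest value, the difference was 0.93 ± 0.48 (unadjusted p = 0.0732, limma; 0.57 without rTg4510 mouse 4), and DN mouse 1, at 4.30, lay above all rTg4510 mice but mouse 4.

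In CA3, C1qa was the member whose rTg4510 values did not overlap the tTA values. It was 1.91, 2.09, 2.37, 2.35 and 2.09 in tTA mice and 2.44 to 3.65 (median 2.74) in rTg4510 mice, and the difference of 0.71 ± 0.33 had an unadjusted p of 0.0456 in limma. Without the arrays at odds with Prnp and the mice at odds with Xist the difference was 0.56 (unadjusted p = 0.125, limma). The highest C1qa value in CA3 was, however, that of DN mouse 2, at 4.003. That count of 1 of 8 member probe sets compares with 0.659% of all probe sets whose rTg4510 and tTA groups did not overlap in CA3; in CA1 and in DG no member was free of overlap, against 0.411% of all probe sets in each. C1qc in CA3 was 1.81, 1.59, 1.32, 1.91 and 1.80 in tTA mice and 1.23 to 2.19 in DN mice, and 1.81 to 5.16 (median 2.84) in rTg4510 mice. Mouse 3 of the rTg4510 group, at 1.81, was the 1 mouse within the tTA range, and mice 4, 5 and 1 stood furthest out at 5.16, 4.19 and 3.31. The difference was 1.46 ± 0.48 (95% interval 0.45 to 2.46; unadjusted p = 0.00728, adjusted p = 0.819, limma), and it was 1.48 ± 0.45 against DN mice. C1qb in CA3 fell into separate sets of rTg4510 mice on its member probe set, 1417063_at. Mice 1, 4 and 5 were at 4.97, 4.85 and 5.11, above every control. Mice 2, 3 and 6 were at 2.21, 2.08 and 1.84, within the tTA values of 1.73, 3.48, 2.07, 2.81 and 2.75. The brighter C1qb probe sets without a symbol, described under other observations, did not show this split. The C1qb difference on 1417063_at was 0.94 ± 0.59 (unadjusted p = 0.132, limma), or 0.62 without mouse 5.

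In DG the order was different. C1qa was 2.64, 3.36, 3.11, 2.44 and 4.26 in tTA mice and 2.28 to 3.35 (median 2.44) in rTg4510 mice, of which mouse 4 alone exceeded the tTA mean of 3.16, with a difference of -0.59 ± 0.35 (95% interval -1.33 to 0.15; unadjusted p = 0.109, limma). C1qc in DG was 3.86, 4.99, 1.77, 1.76 and 5.64 in tTA mice, a wider spread than in rTg4510 mice (2.11 to 4.38, median 3.20), and the difference was -0.41 ± 0.65. C1qb in DG was 3.16, 3.14, 2.85, 3.28 and 3.49 in tTA mice and 2.37 to 4.36 (median 3.41) in rTg4510 mice, a difference of 0.16 ± 0.34. In DN mice the DG values ran from 2.10 to 4.01 (median 2.83) for C1qa, 1.73 to 3.18 (2.52) for C1qc and 2.11 to 3.79 (2.91) for C1qb, all overlapping the other genotypes. None of these DG differences between rTg4510 and tTA mice passed the unadjusted threshold. Without the arrays at odds with Prnp, which removes rTg4510 mouse 3 here, the 3 differences were -0.54, -0.19 and 0.36.

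**Figure D2:**
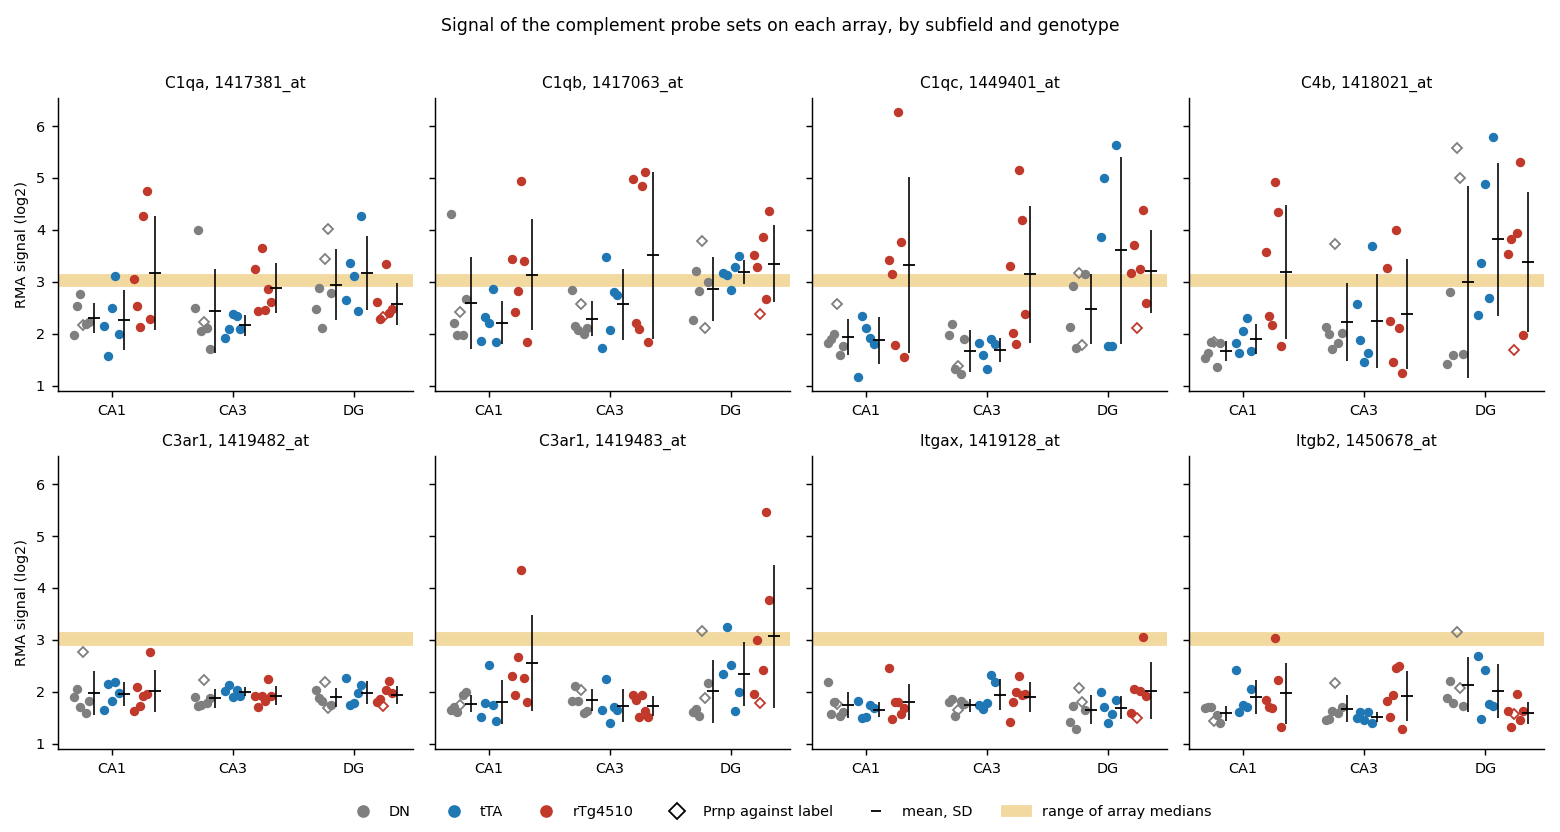
RMA signal (log2) of the 8 complement probe sets on each of the 51 arrays, by subfield and genotype; each symbol is 1 mouse, open diamonds are the arrays on which Prnp went against the label, black bars are the mean and SD, and the band spans the array medians (2.91 to 3.12). In CA1 and CA3 single rTg4510 mice reach 6.28 and 5.16 for C1qc while others stay with the controls, and in DG the ranges of the 3 genotypes overlap for all 8 probe sets.

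C4b, which encodes a component cleaved after C1q binding, followed the C1q genes in CA1 but not in CA3. In CA1 it was 1.83, 1.62, 2.04, 2.31 and 1.67 in tTA mice, 1.35 to 1.84 (median 1.72) in DN mice and 1.76 to 4.92 (median 2.97) in rTg4510 mice. The values of rTg4510 mice 4, 5 and 1 were 4.92, 4.34 and 3.58, mouse 2 was just above the highest tTA mouse at 2.35, and mice 3 and 6 fell within the tTA range at 2.18 and 1.76. The difference was 1.29 ± 0.45 (95% interval 0.35 to 2.24), a 2.45-fold difference, with an unadjusted p of 0.0104 and an adjusted p of 0.999 in limma. Against DN mice it was 1.52 ± 0.43 (unadjusted p = 0.00246, adjusted p = 0.726, limma), and 1.56 without the arrays at odds with Prnp. In CA3, C4b was 2.58, 1.87, 1.46, 1.63 and 3.68 in tTA mice and 1.24 to 3.997 (median 2.18) in rTg4510 mice, which overlapped over nearly their whole range, and the difference was 0.14 ± 0.52. In DG, the tTA values of 2.36, 3.36, 4.89, 2.69 and 5.79 again spanned most of the rTg4510 values (1.69 to 5.32, median 3.68), with a difference of -0.43 ± 0.89. The DN values in DG rested on the doubtful arrays: DN mice 4 and 5, at 5.57 and 4.99, were the arrays with Prnp at the rTg4510 level, and the other DN mice lay between 1.41 and 2.81. With them in the DN group, rTg4510 minus DN in DG was 0.38 (unadjusted p = 0.655, limma). Without the arrays at odds with Prnp it was 1.86 (unadjusted p = 0.0235, adjusted p = 0.647, limma). C4b has a close neighbour in sequence, C4a, and whether the probe set separates them was not tested.

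The 4 receptor probe sets lay below the array median on 46 to 51 of the 51 arrays, and the 4 probe sets of the components on 33 to 39. C3ar1, the C3a receptor, gave unequal results on its 2 probe sets. On 1419483_at in CA1 it was 1.52, 1.79, 2.51, 1.75 and 1.43 in tTA mice and 1.80 to 4.35 (median 2.29) in rTg4510 mice, and the difference of 0.76 ± 0.35 had an unadjusted p of 0.0451 in limma. The DN values, with a lowest of 1.61 and a median of 1.73, all lay within the tTA range. Among the rTg4510 mice, mouse 4 alone, at 4.35, stood apart, the next being mouse 3 at 2.68, and without mouse 4 the difference was 0.40. In CA3 the same probe set showed a difference of -0.01 ± 0.16, and in DG of 0.72 ± 0.54, where rTg4510 mice 5, 6 and 2 were at 5.46, 3.76 and 2.99 and tTA mouse 2 was at 3.25. DN mice spanned 1.597 to 2.11 in CA3 and 1.54 to 3.17 in DG. Over the mean of the 3 subfields of each mouse the difference was 0.49 ± 0.20 (unadjusted p = 0.0275, adjusted p = 0.911, limma). Without the mice that had an array at odds with Prnp it was 0.58 (unadjusted p = 0.0121, adjusted p = 0.88, limma). On 1419482_at, which stayed below the array median throughout, the differences were 0.06, -0.08 and -0.04 in CA1, CA3 and DG.

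Itgax and Itgb2, the chains of complement receptor 4, did not pass the unadjusted threshold between rTg4510 and tTA mice in any subfield. Itgax lay between 1.28 and 3.05 on all arrays, and its differences between rTg4510 and tTA mice were 0.15 ± 0.17 in CA1, -0.04 ± 0.16 in CA3 and 0.33 ± 0.23 in DG. The 1 Itgax value above an array median was that of rTg4510 mouse 5 in DG, at 3.05, the mouse that also held the highest C3ar1 value there. Itgb2 lay between 1.29 and 3.14, with differences of 0.06 ± 0.24 in CA1, 0.40 ± 0.20 in CA3 (unadjusted p = 0.0639, limma) and -0.42 ± 0.26 in DG. Its highest value was that of DN mouse 4 in DG, one of the arrays at odds with Prnp. With these arrays rTg4510 minus DN in DG was -0.55 ± 0.24 for Itgb2 (unadjusted p = 0.0395, adjusted p = 0.967, limma), and without them -0.31 (unadjusted p = 0.22). For Itgax the same comparison gave 0.36 with these arrays (unadjusted p = 0.119) and 0.61 without them (unadjusted p = 0.0282, adjusted p = 0.679, limma).

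**Figure D3:**
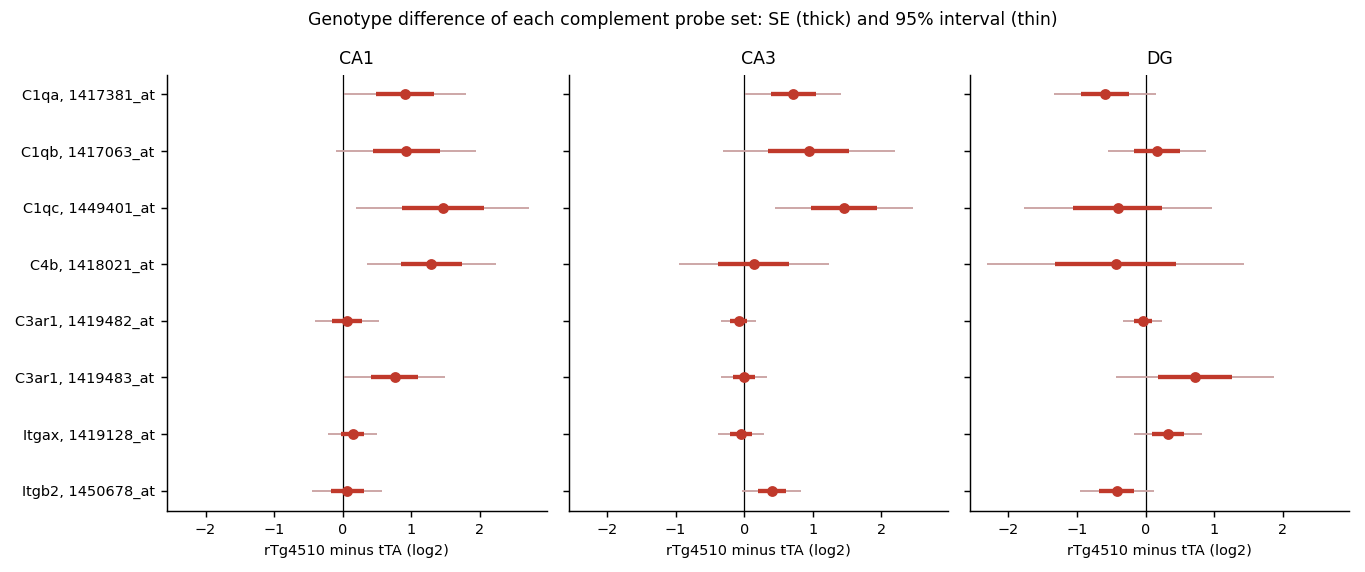
Difference in log2 signal between rTg4510 and tTA mice for each complement probe set in CA1, CA3 and DG; thick bars are the SE and thin bars the 95% interval of limma. All 8 points lie above 0 in CA1, 5 of 8 in CA3 and 3 of 8 in DG, and no difference passed the adjusted threshold.

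Over the 8 probe sets, rTg4510 minus tTA was above 0 for 8 in CA1 (median 0.83, against -0.02 over all probe sets, 46.9% of which were above 0), for 5 in CA3 (median 0.27, against -0.03) and for 3 in DG (median -0.22, against -0.01). The number called at an adjusted p below 0.05 in limma was 0 in each subfield, against 0% of all probe sets in CA1, 0.00442% in CA3 and 0% in DG. At an unadjusted p below 0.05, 4 of 8 passed in CA1 (C1qa, C1qc, C4b and C3ar1 on 1419483_at), 2 in CA3 (C1qa and C1qc) and 0 in DG, against 3.97%, 5.91% and 5.71% of all probe sets. The study reported complement genes as raised in whole rTg4510 hippocampus, and the members were chosen with earlier results known. Their shares beside those of all probe sets are therefore a description and not a test of the list. The member probe sets were not independent of each other, since the same few rTg4510 mice carried the high values. Without rTg4510 mouse 4 the median in CA1 was 0.48, in place of 0.83, and 2 probe sets passed the unadjusted threshold. In CA3 the median was 0.13 without that mouse. Without the arrays at odds with Prnp, which are DN arrays in CA1 and CA3 and change only the pooled spread there, 2 passed it in CA1 and 1 in CA3. Against DN mice, 8 of 8 were above 0 in CA1 (median 0.67), 7 in CA3 (0.21) and 6 in DG (0.37), with 0 called, against 0.00442% of all probe sets in CA1 and 0% in CA3 and DG. At the unadjusted threshold 4, 2 and 1 of 8 passed, against 5.39%, 3.94% and 4.73% of all probe sets. When the arrays at odds with Prnp were left out, the medians against DN mice were 0.65, 0.37 and 0.66, and 3, 1 and 4 of 8 passed the unadjusted threshold, against 4.87%, 3.52% and 6.7% of all probe sets; those in DG were C1qb, C4b, C3ar1 on 1419483_at and Itgax, and none was called. The DG median of rTg4510 minus tTA was then -0.05, with 4 of 8 above 0. The comparison with DN mice shares its rTg4510 mice with the one with tTA mice. Between tTA and DN mice, 3 of 8 were above 0 in CA1, 5 in CA3 and 7 in DG, the medians were -0.03, 0.02 and 0.27, and 0 passed the unadjusted threshold, against 4.59%, 6.13% and 5.21% of all probe sets. Without the arrays at odds with Prnp, 8 of 8 were above 0 in DG (median 0.48), and 1 passed it there, against 4.77% of all probe sets, C4b at 1.96 (unadjusted p = 0.0183, limma).

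Whether the genotype difference itself changed between subfields was tested on the differences between the subfields of each mouse. The rTg4510 minus tTA difference was larger in CA1 than in DG by 1.496 ± 0.56 for C1qa (unadjusted p = 0.0161, limma), by 1.86 ± 0.78 for C1qc (unadjusted p = 0.0289) and by 1.73 ± 0.85 for C4b (unadjusted p = 0.0589), and larger in CA1 than in CA3 by 1.15 ± 0.49 for C4b (unadjusted p = 0.031). After adjustment over all probe sets 0 of 8 passed in either contrast, as for all probe sets (0%). At the unadjusted threshold 2 of 8 passed for CA1 against DG, beside 4.82% of all probe sets, and 1 of 8 for CA1 against CA3, beside 4.15%. Without the mice that had an array at odds with Prnp, 3 of 8 passed for CA1 against DG, beside 5.33%. C4b was then at 1.59 there (unadjusted p = 0.0346, limma). For CA1 against CA3 it was again 1 of 8, beside 4.3%, and 0 were called in either contrast. With all mice, C1qb on its member probe set, 1417063_at, was at 0.76 ± 0.63 for CA1 against DG (unadjusted p = 0.241, limma). The C1qb probe sets without a symbol, 1437726_x_at and 1434366_x_at, were at 2.402 ± 0.92 and 1.701 ± 0.66 there. Their unadjusted p was 0.018 and 0.0198 and their adjusted p 0.99 (limma), so neither was called. For CA1 against CA3 they were at -0.08 ± 1.03 and -0.28 ± 0.71. The genotype difference was therefore not shown to differ between subfields for any member or for these C1qb probe sets.

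Between subfields some members passed the adjusted threshold, as none did between genotypes. The subfield fits compare 17 mice with themselves and the genotype fits compare groups of 5 or 6 mice, so the counts are not comparable. With each mouse as its own block, C4b was lower in CA1 (mean 2.27, SD 1.02, n = 17) and in CA3 (2.29, SD 0.86) than in DG (3.37, SD 1.51), with differences of -1.10 ± 0.31 (2.15-fold; adjusted p = 0.0157, limma) and -1.09 ± 0.31 (2.12-fold; adjusted p = 0.0153). CA1 lay above DG in 6 of 17 mice and CA3 above DG in 5 of 17. These fits pool the genotypes. For C4b, CA1 minus DG was on average -1.33 in DN, -1.92 in tTA and -0.19 in rTg4510 mice. C1qc was lower in CA3 (2.19, SD 1.07) than in DG (3.06, SD 1.17), with a difference of -0.87 ± 0.29 (adjusted p = 0.039, limma). CA3 lay above DG in 3 of 17 mice. Its CA3 and DG means were 1.66 and 2.48 in DN, 1.69 and 3.60 in tTA and 3.14 and 3.20 in rTg4510 mice. C3ar1 on 1419483_at was lower in CA3 (1.77, SD 0.23) than in DG (2.48, SD 1.01), with a difference of -0.71 ± 0.24 (adjusted p = 0.0384, limma). CA3 lay above DG in 4 of 17 mice. Its CA3 and DG means were 1.84 and 2.01 in DN, 1.73 and 2.34 in tTA and 1.72 and 3.06 in rTg4510 mice. The other 5 member probe sets did not pass between CA3 and DG, and C1qa was -0.37 ± 0.24, C1qb -0.33 ± 0.25 and Itgb2 -0.20 ± 0.13. Thus 1 of 8 was called between CA1 and DG, 3 between CA3 and DG and 0 between CA1 and CA3, against 10.9%, 13.9% and 4.68% of all probe sets; the first count is close to its background. Neighbouring CA1 and CA3 levels did not differ beyond their spread for any member, the largest difference being 0.29 ± 0.24 for C3ar1 on 1419483_at. Without the arrays at odds with Prnp, 3 of which are DG arrays, C4b was still lower in CA1 than in DG, at -0.85, but no longer called (adjusted p = 0.0769, limma), which left 0 of 8, and between CA3 and DG 2 of 8 were called, C4b (adjusted p = 0.0353) and C3ar1 on 1419483_at (adjusted p = 0.0489). C1qc was then at -0.87 with an adjusted p of 0.0832, and with mouse as a random block on all 51 arrays its adjusted p was 0.0714. When each of the 17 mice was left out in turn, the C4b differences were called each time, and those of C1qc and C3ar1 between CA3 and DG 9 times each.

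**Figure D4:**
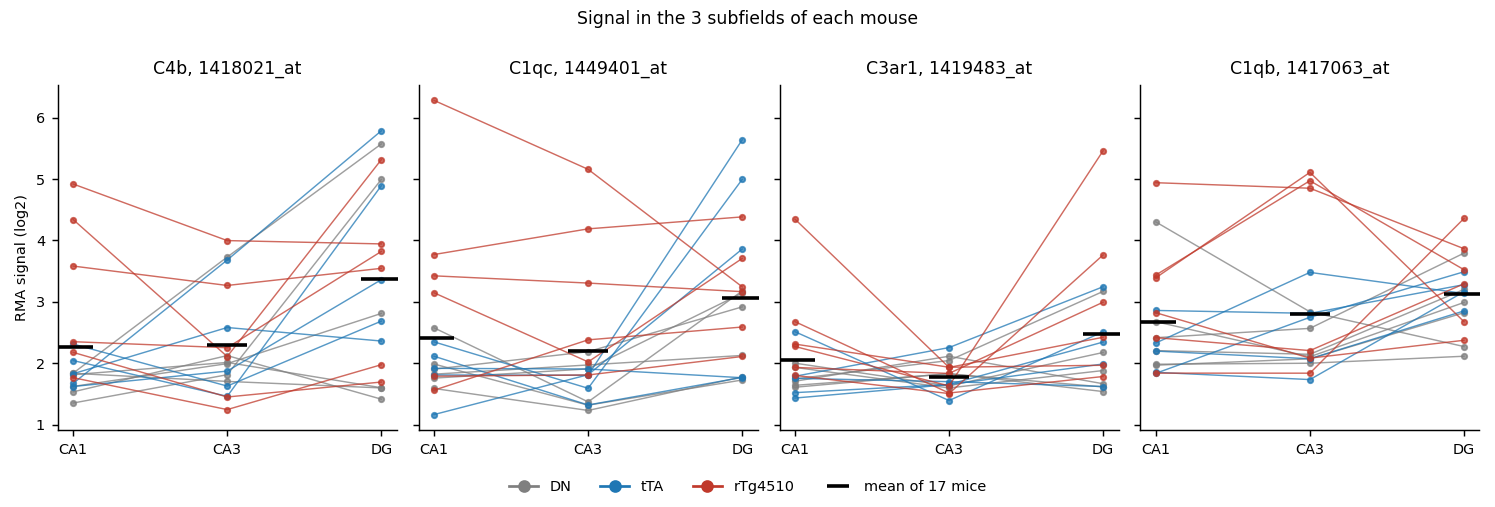
RMA signal (log2) of C4b, C1qc, C3ar1 (1419483_at) and C1qb in CA1, CA3 and DG, with a line for each of the 17 mice coloured by genotype and a black bar for the mean. The means of C4b are 2.27 in CA1, 2.29 in CA3 and 3.37 in DG, while single rTg4510 mice run the other way for C1qc.

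Of 50 other complement genes listed (components, proteases, regulators and receptors), 35 had a named probe set on the array, and none was called between genotypes in any subfield. Between rTg4510 and tTA mice, 21 of 35 were above 0 in CA1, 13 in CA3 and 21 in DG, with medians of 0.03, -0.08 and 0.03. At the unadjusted threshold of limma 0, 1 and 5 passed, against 3.97%, 5.91% and 5.71% of all probe sets. The largest of these was Vtn (vitronectin, an inhibitor of the terminal complex) in DG, at 6.24 in rTg4510 and 3.42 in tTA mice on average, a difference of 2.82 ± 0.90 (unadjusted p = 0.00625, adjusted p = 0.764), and the next smallest p there was that of Susd4, at 1.11 ± 0.41 (unadjusted p = 0.0145). In CA1 Vtn differed by 1.19 ± 0.59 and Susd4, a regulator of the C3 convertase, by 0.83 ± 0.44. In CA3 Cd55b differed by -0.31 ± 0.13 (unadjusted p = 0.0333) and Cd55, which speeds the decay of the convertase, by -1.08 ± 0.58. Between subfields, 5 of 35 were called for CA1 against CA3, 4 for CA1 against DG and 7 for CA3 against DG, against 4.68%, 10.9% and 13.9% of all probe sets, so that the count for CA1 against DG is near its background. Cd55 was higher in CA1 by 1.37 ± 0.32 and in CA3 by 1.40 ± 0.32 than in DG (adjusted p = 0.0027 and 0.00172, limma), in 15 and 16 of 17 mice. Clu (clusterin), another inhibitor of the terminal complex and a gene of the astrocyte list too, was lower than in DG, at -0.49 ± 0.11 and -0.59 ± 0.11 (adjusted p = 0.00217 and 0.000165). Serping1, the C1 inhibitor, was higher in CA3 than in CA1 and DG, with CA1 minus CA3 at -0.74 ± 0.17 and CA3 minus DG at 0.53 ± 0.17 (adjusted p = 0.00418 and 0.0289), and C1rb, a C1r protease gene, was likewise higher in CA3, at -1.14 ± 0.26 and 1.51 ± 0.26 in these contrasts (adjusted p = 0.00517 and 5.29e-05). Masp1, a protease of the lectin pathway, was higher in CA1 than in CA3 by 0.95 ± 0.22 and than in DG by 0.79 ± 0.22 (adjusted p = 0.00638 and 0.0144), Masp2 was lower in CA1 than in DG, at -0.73 ± 0.18 (adjusted p = 0.0048), and Susd4 was lower in CA1 than in CA3, at -0.91 ± 0.26 (adjusted p = 0.0328). Probe sets of C4bp, C5ar1 and Itgam, the CD11b chain of complement receptor 3, were also called in CA3 but at means of 2.22, 2.09 and 1.97, below the array medians.

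Markers of the cells that could supply this RNA differed between groups too, in some comparisons in the direction of the members and in others not. The mean of 23 microglial genes, none of them a member, lay between 2.49 and 2.91 in DN CA1, 2.49 and 2.88 in tTA CA1 and 2.72 and 4.12 in rTg4510 CA1, and rTg4510 mouse 4 held the highest value. In CA3 the ranges were 2.33 to 2.87, 2.55 to 3.10 and 2.63 to 3.34, and in DG 2.39 to 3.10, 2.75 to 3.28 and 2.61 to 3.15. Of these genes 6 were above the array median on most arrays, among them Tyrobp on 50 and Ctss on 51, whereas Trem2 and Cd14 were above it on none. Of the 23, 17 were higher in rTg4510 than in tTA CA1 (median difference 0.37), 14 in CA3 (0.09) and 11 in DG (-0.01), and none was called. Of other glia, 14 of 14 astrocyte genes and 9 of 9 oligodendrocyte genes were higher in rTg4510 CA1 (median differences 0.30 and 1.19), 11 of 14 and 9 of 9 in CA3 (0.14 and 1.0003), and 14 of 14 and 9 of 9 in DG (0.24 and 0.79), where 3 of 8 members were. Of 11 vessel genes, 9, 10 and 10 were higher in CA1, CA3 and DG (0.31, 0.28 and 0.32). Of 6 neuron genes, 5, 2 and 6 were higher (0.07, -0.09 and 0.16). Of the 4 marker genes of CA1, 0 were higher in rTg4510 than in tTA CA1 (median difference -0.79). None of these genes was called, and rTg4510 mouse 4 also had the highest astrocyte and oligodendrocyte means in CA1, 7.87 and 7.39. Astrocyte genes were lower in CA1 than in DG for 13 of 14 (9 called) and in CA3 than in DG for 12 of 14 (6 called). Microglial genes were higher in CA1 than in DG for 13 of 23 (0 called) and in CA3 than in DG for 6 of 23 (1 called, lower in CA3), and oligodendrocyte genes were higher in CA1 than in DG for 9 of 9 (0 called) and in CA3 than in DG for 7 of 9 (1 called). The 6 border macrophage genes were higher in rTg4510 CA1 for 3 of 6 (median difference -0.10, ranges of the mean 1.52 to 2.08, 1.53 to 2.13 and 1.51 to 2.01 in DN, tTA and rTg4510 mice), and none of them, nor any of 8 genes of other leukocytes, was above the array median on most arrays. The part of the amount of glial tissue in the captured layers in the complement values was not tested.

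Across the 17 mice of each subfield, 33 correlations were computed, between C1q genes and between each member probe set and the mean of the microglial genes, with permutation p-values adjusted over the 33. Among the C1q genes, C1qb and C1qc passed on r alone in CA1 (r = 0.73, rho = 0.58, adjusted p = 0.0119 and 0.0787) and CA3 (r = 0.82, rho = 0.50, adjusted p = 0.00621 and 0.111) but not in DG (r = 0.32, rho = 0.37, adjusted p = 0.293 and 0.232). In CA1 so did C1qa with C1qc (r = 0.75, rho = 0.55, adjusted p = 0.0119 and 0.0835) and with C1qb (r = 0.56, rho = 0.36, adjusted p = 0.0449 and 0.232). Without 2 mice these 2 pairs fell to 0.37 and 0.12, and C1qb with C1qc stayed at 0.73 in CA1 and 0.74 in CA3. C1qc followed the microglial mean in CA1 (r = 0.95, rho = 0.73, adjusted p = 0.00033 and 0.0179), and r was 0.71 without the 2 mice farthest from the median and 0.93 with genotype means removed. In CA3 its values were r = 0.75 and rho = 0.53 (adjusted p = 0.00313 and 0.095) and in DG r = 0.69 and rho = 0.73 (adjusted p = 0.0107 and 0.0179), with 0.67 and 0.70 left without 2 mice. C4b followed it in CA1 (r = 0.89, rho = 0.64, adjusted p = 0.00033 and 0.0439; 0.64 without 2 mice) and DG (r = 0.76, rho = 0.80, adjusted p = 0.00313 and 0.00792; 0.69 without 2 mice) but not past the threshold in CA3 (r = 0.49, rho = 0.31, adjusted p = 0.0869 and 0.292). Itgax passed on both measures in DG (r = 0.60, rho = 0.68, adjusted p = 0.0238 and 0.0293; 0.55 without 2 mice). C1qb passed on r alone in CA1 (r = 0.76, rho = 0.50, adjusted p = 0.00844 and 0.111; 0.43 without 2 mice) and in CA3 (r = 0.72, rho = 0.57, adjusted p = 0.00621 and 0.0787; 0.71 without 2 mice), as did C1qa in DG (r = 0.57, rho = 0.47, adjusted p = 0.0373 and 0.141; 0.55 without 2 mice). For C1qa, C3ar1 on 1419483_at and Itgb2 in CA1 the relation rested on 2 mice, since r fell from 0.73 to 0.21, from 0.83 to 0.27 and from 0.72 to -0.09 without them.

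**Figure D5:**
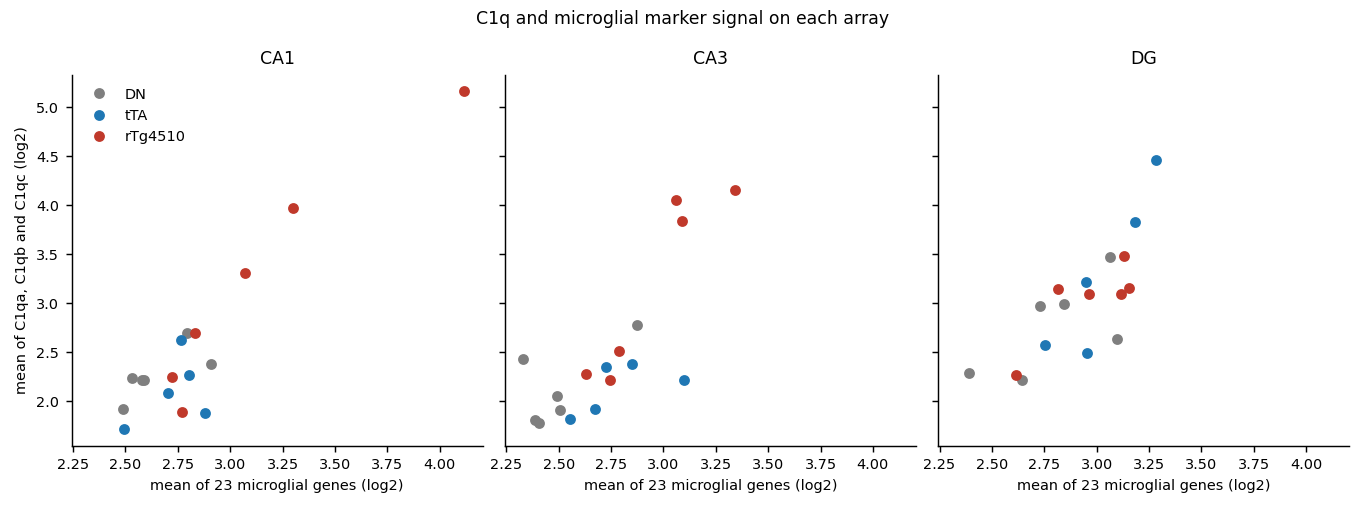
Mean log2 signal of C1qa, C1qb and C1qc against the mean of 23 microglial marker genes, 1 point for each array, in CA1, CA3 and DG. The point furthest up in CA1 is rTg4510 mouse 4 at 5.16, with a microglial mean of 4.12.

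The genes whose signals were most like the mean of C1qa, C1qb and C1qc over the 51 arrays, after the mean of each subfield was removed, were Tyrobp (r = 0.80), a signalling adaptor of microglia, Cst3 (0.77), the protease inhibitor cystatin C, Lcp1 (0.75), a leukocyte actin-bundling protein, Gja1 (0.72), the gap junction protein of astrocytes, Sparc (0.71), Ctss (0.70), a lysosomal protease of microglia, Id3 (0.69) and Gramd3 (0.69). Those most like C4b were Gfap (0.75), the intermediate filament of astrocytes, S100a6 (0.65), Vim (0.64), another intermediate filament, Ptprc (0.62), the leukocyte antigen CD45, and Tmem176a (0.62). The arrays share mice and captured layers, so these values describe likeness alone.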

How the data were processed

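RNA of the captured layers was amplified and labelled (Ovation Pico WTA, Encore Biotin) and hybridized to Affymetrix HT-MG-430A arrays, 1 per mouse and subfield. The deposited values are RMA signals normalized by the authors; their methods name anti-log RMA, but the deposited values range from 0.711 to 12.3 and were treated as log2. The software version is not given in the sources used here. Of 22716 probe sets, 90 array controls were left out. The platform table names 1 symbol for 18003, several for 287 and none for 4336.

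Genotypes were compared within each subfield over the 3 genotypes, on the mean of the subfields of each mouse and on differences between subfields, and subfields over 51 arrays with mouse as a block, by limma 3.58.1 in R 4.3.3. P-values were adjusted over 22626 probe sets by the Benjamini-Hochberg method, with 0.05 as threshold. Correlations used 100000 permutations. All probe sets of the 7 genes are described; other complement genes are named where called, or as the 2 with the smallest p in each rTg4510 against tTA comparison, with other calls counted; the most alike genes are the 8 and 5 with the highest r. The members and lists were chosen with earlier results of these data known. P-values of genotype comparisons measure the spread between mice, for interactions that of the difference between subfields of each mouse. Those of subfield comparisons measure the spread left within mice after the block, and those of correlations come from the permutations. The precision is limited by the number of arrays.

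Alternatives were Fisher's LSD test (the study's test) on log2 and linear values, limma with weighted arrays or with a trend, removal of probe sets dimmer than percentile 40 of a subfield, median centring or quantile normalization of the arrays, fits of 2 genotypes, mouse as a random block or no block, all probe sets of other complement genes, and leaving out doubtful arrays or each of 17 mice.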

Additional observations from a re-analysis of the deposited data

Results flagged for a closer look

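In 10 of 72 groups of 5 or 6 mice, a single value of a member lay farther from the others than Dixon's 95% limit. That limit flags about 1 group in 20 by chance only if values are normally distributed and groups are independent. The groups share mice and most signals were low, so the count of 10 cannot be read against that rate. DN mouse 4, whose Prnp goes against its label, held 4 of them: C4b in CA3 at 3.73 (next value 2.12), C3ar1 on 1419482_at in CA3 at 2.23 (next 1.90), Itgb2 in CA3 at 2.17 (next 1.70) and Itgb2 in DG at 3.14 (next 2.21). The next 2 were other DN mice, C1qa in CA3 of mouse 2 at 4.003 (next 2.50) and C1qb in CA1 of mouse 1 at 4.30 (next 2.68). The other 4 were rTg4510 mice: C1qa in DG of mouse 4 at 3.35 (next 2.61), C3ar1 on 1419483_at in CA1 of mouse 4 at 4.35 (next 2.68), Itgax in CA1 of mouse 1 at 2.46 (next 1.81) and Itgax in DG of mouse 5 at 3.05 (next 2.06).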

How the results depend on the processing

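In every alternative, including leaving out any 1 of the 17 mice, 0 of 8 complement probe sets were called between genotypes; of the 35 other complement genes, 0 were called too. Leaving out 1 mouse moved the number below the unadjusted threshold for rTg4510 minus tTA between 1 (without tTA mouse 1) and 5 (without rTg4510 mouse 6) in CA1, where 4 passed with all mice and 2 without DN mouse 2, 3, 4, 5 or 6, rTg4510 mouse 4 or tTA mouse 2 or 5. In CA3 it moved between 1 and 4 (without rTg4510 mouse 6), and was 1 without DN mouse 1, 4 or 5, rTg4510 mouse 1, 3 or 5 or any tTA mouse; in DG it was 0 or 1. The CA3 median of 0.27 was 0.13 without rTg4510 mouse 4, 0.17 without tTA mouse 3, 0.44 without tTA mouse 5 and 0.45 without rTg4510 mouse 6. Between CA1 and DG, the 1 call became 0 with no replicate block for the mouse, 0 without the arrays against Prnp and 0 without these and the mice against Xist, and ranged from 1 to 2 (without rTg4510 mouse 4) over mice left out. The number of other complement genes called there was 7 when all probe sets were counted, in place of 4. Between CA3 and DG, the 3 calls became 1 with median centring, 1 with no replicate block and 1 without the arrays against Prnp or mice against Xist, and ranged from 1 to 3, with 1 left without DN mouse 4 or 6, rTg4510 mouse 2 or tTA mouse 1 or 2. With mouse as a random replicate block C1qc for CA3 minus DG was no longer called (adjusted p = 0.0714). Arrays of 1 mouse were weakly alike (correlation 0.045 over probe sets).

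Differences that changed sign were small, none was called, and the cause was not tested. For rTg4510 minus tTA in CA3, C3ar1 on 1419483_at was 0.0492 and Itgax 0.0121 with quantile normalization, and the former 0.0366 without the arrays against Prnp or mice against Xist. With either set of arrays left out, C3ar1 on 1419482_at was 0.0016 in DG and 0.0145 in the mean of subfields, and the CA1 minus DG interaction of C3ar1 on 1419483_at was -0.248. C4b for CA1 minus CA3 was 0.0986 and 0.0936, and Itgb2 for CA1 minus DG 0.0114 and 0.0327, under these settings. C3ar1 on 1419482_at for CA3 minus DG was 0.0686 with median centring.

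Over mice left out, rTg4510 minus tTA in CA1 ranged from -0.0858 to 0.143 for C3ar1 on 1419482_at and from -0.1496 to 0.192 for Itgb2. In CA3 it ranged from -0.1802 to 0.5013 for C4b, from -0.09 to 0.1255 for C3ar1 on 1419483_at and from -0.1214 to 0.0564 for Itgax. In DG the range was -0.0376 to 0.3594 for C1qb, -0.8657 to 0.1033 for C1qc, -0.8212 to 0.0576 for C4b and -0.0998 to 0.0284 for C3ar1 on 1419482_at. In the mean of subfields it was -0.0729 to 0.0145 for the latter and -0.1145 to 0.1134 for Itgb2. The interaction of CA1 and CA3 ranged from -0.1306 to 0.5522 for C1qa, -0.2356 to 0.2556 for C1qb, -0.2064 to 0.2026 for C1qc, -0.0038 to 0.2256 for C3ar1 on 1419482_at and -0.0402 to 0.2803 for Itgax. That of CA1 and DG ranged from -0.0432 to 0.2115 for C3ar1 on 1419482_at, -0.4542 to 0.5684 on 1419483_at and -0.3952 to 0.0742 for Itgax. CA1 minus CA3 ranged from -0.0242 to 0.1891 for C1qa and -0.1592 to 0.1059 for C4b, CA1 minus DG from -0.1176 to 0.0291 for Itgax and -0.1704 to 0.0039 for Itgb2, and CA3 minus DG from -0.0282 to 0.0111 for C3ar1 on 1419482_at.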

Other observations

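Probe sets 1437726_x_at and 1434366_x_at of C1qb and 1423954_at of C3 carry no symbol in the platform annotation and were named from the study's supplementary lists. Those lists were chosen by outcome, and probe sets of the first kind can bind related transcripts. These 2 C1qb probe sets lay above the array median on 46 and 48 of 51 arrays and followed each other at r = 0.95. The member probe set of C1qb, 1417063_at, followed them at only r = 0.32 and 0.44, C1qc at 0.64 and C1qa at 0.31. The unnamed probe sets 1437726_x_at and 1434366_x_at followed C1qc at r = 0.65 and 0.74 and C1qa at 0.53 and 0.59. Which probe set reports C1qb best was not tested. DN mouse 1 in CA1 was the highest DN mouse there on 1417063_at, at 4.30, but the lowest on these 2, at 2.60 and 3.57. The C1qb results above rest on 1417063_at unless another probe set is named. The split of the rTg4510 mice in CA3 was seen on 1417063_at only. On 1437726_x_at, mice 2 and 3, at 6.503 and 6.508, lay between mice 1 and 5, at 5.947 and 6.73. Mouse 4 was highest there at 7.089 and mouse 6 lowest at 3.907. The order of these mice was the same on 1434366_x_at. The means of the 2 unnamed C1qb probe sets were lowest in CA1 and highest in DG, the order that 2 of the 8 member probe sets had (C1qb and C4b). They were 4.79, 5.19 and 6.19 in CA1, CA3 and DG on 1437726_x_at, where CA1 minus DG was -1.41 ± 0.44 (adjusted p = 0.0312, limma), and 4.61, 4.78 and 5.74 on 1434366_x_at, where it was -1.13 ± 0.32 (adjusted p = 0.017). Their rTg4510 minus tTA differences on 1437726_x_at were 0.86 ± 1.08 in CA1, 0.94 ± 0.69 in CA3 and -1.54 ± 0.97 in DG, the last with all 5 tTA mice at 5.73 or above and rTg4510 mice from 1.93 to 8.03. On 1434366_x_at the differences were 0.63 ± 0.74, 0.90 ± 0.59 and -1.07 ± 0.73. None was called.

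C3, the component on which the pathways converge, was below the array median on all 51 arrays (1.16 to 2.59). In CA3 it was 1.98, 1.67, 1.86, 1.74 and 2.09 in tTA mice, above all 6 rTg4510 mice (1.35 to 1.48) and all 6 DN mice (1.28 to 1.54), and rTg4510 minus tTA was -0.46 ± 0.10 (unadjusted p = 0.000382, adjusted p = 0.691, limma).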
